A study of Homo sapiens with 2 samples.

Results

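The transcripts of 43 genes of the mitotic spindle, the kinetochore and the machinery of cell division were compared between radiation-adapted and wild-type cells of the human Ewing sarcoma line MHH-ES-1. All probes that the platform annotation assigns to 1 of these gene symbols were taken, which gave 67 probes for the 43 of 20046 named genes. Labelled cRNA amplified from the RNA was hybridised to Illumina bead arrays, 1 for wild-type cells and 1 for the radiation-adapted derivative. The short label of the derivative carries 4 Gy. How that dose was given, when the RNA was taken relative to it, and whether the derivative is 1 clone are not stated in the labels. With 1 array per line there were no replicates, so no p-value is given and each value describes these 2 RNA samples.

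Many transcripts of this group accumulate from late S phase to mitosis in dividing cells. The cyclin-dependent kinase CDK1 with its cyclins starts mitosis, the kinetochore ties each centromere to spindle microtubules, and the spindle assembly checkpoint holds back the anaphase-promoting complex until every kinetochore is attached. Many of these genes share promoter elements, the cell cycle genes homology region (CHR), which is bound by the MuvB complex, and CCAAT boxes, which are bound by the trimer NF-Y. MuvB with B-MYB and FOXM1 activates such promoters in G2 and mitosis, and MuvB within the DREAM complex represses them in resting cells. In bulk RNA, more cells in a phase of the cycle and more RNA per cell cannot be told apart.

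The promoters were therefore examined for both elements. RefSeq promoter windows (GRCh38.p14, from 250 bases before the transcription start to 50 bases after it) were matched by symbol for 36 of the 43 genes, in 47 windows, since 7 of these genes had more than 1 window. The genes BUB3, TTK, FOXM1, AURKA, BIRC5, TPX2 and UBE2C had no entry. The letters TTTGAA, the CHR, occurred on either strand in 31 of the 47 windows (66.0%), against 15.2% of all 35116 windows. The variant TTTAAA, which reads the same on both strands, was present in 13 windows (27.7%), against 12.2% of all. CCAAT occurred on either strand in 34 windows (72.3%), against 34.6%. By gene, 33 of 36 had at least 1 of the CHR forms (91.7%, against 27.9% of all genes with a window). CCAAT was present in 29 of 36 (80.6%, against 39.7%), and no gene lacked all 3 motifs. A match is a description of these letters and does not show binding.

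Below, the 150 bases before the start are printed for members with 1 window. The 3 with the highest and the 3 with the lowest log2 ratios were taken. As 33 of 36 members with a window have a CHR form and 29 have CCAAT, the print cannot relate these letters to the ratio. The strand is that of the gene, 5′ to 3′, and capitals mark both CHR forms and the CCAAT box, read on either strand. MKI67 lies on the minus strand (chr10:128126424-128126573), CENPF on the plus strand (chr1:214603045-214603194), ASPM on the minus strand (chr1:197146670-197146819), INCENP on the plus strand (chr11:62123861-62124010), HMMR on the plus strand (chr5:163460482-163460631) and PLK1 on the plus strand (chr16:23678739-23678888). In MKI67 the second TTTGAA and an ATTGG share 1 base, and in HMMR 2 TTTGAA follow each other directly.
MKI67: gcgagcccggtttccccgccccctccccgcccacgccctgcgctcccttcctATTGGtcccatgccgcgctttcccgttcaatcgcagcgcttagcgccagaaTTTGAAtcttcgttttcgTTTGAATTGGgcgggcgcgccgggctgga
CENPF: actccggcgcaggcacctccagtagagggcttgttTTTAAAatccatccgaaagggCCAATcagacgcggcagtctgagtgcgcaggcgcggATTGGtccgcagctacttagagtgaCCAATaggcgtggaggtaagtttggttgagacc
ASPM: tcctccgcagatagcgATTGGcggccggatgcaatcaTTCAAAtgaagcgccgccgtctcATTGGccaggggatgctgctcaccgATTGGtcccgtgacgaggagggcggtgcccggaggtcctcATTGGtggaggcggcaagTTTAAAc
INCENP: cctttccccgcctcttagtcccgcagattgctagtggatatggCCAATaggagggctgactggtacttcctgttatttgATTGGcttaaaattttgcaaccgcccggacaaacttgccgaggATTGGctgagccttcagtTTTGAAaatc
HMMR: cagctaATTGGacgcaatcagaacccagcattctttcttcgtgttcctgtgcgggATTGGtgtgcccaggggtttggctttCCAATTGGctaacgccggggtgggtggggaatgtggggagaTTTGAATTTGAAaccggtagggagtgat
PLK1: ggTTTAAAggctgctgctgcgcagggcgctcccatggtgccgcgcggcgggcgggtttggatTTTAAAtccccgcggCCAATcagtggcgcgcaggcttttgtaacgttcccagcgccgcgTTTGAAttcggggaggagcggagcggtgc

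Positions are counted from the transcription start, with -1 the last base before it. The CHR began at -47 and -29 in MKI67, at -28 and -22 in HMMR, at -29 in PLK1 and at -10 in INCENP. In ASPM it was found at -113 on the other strand, with the variant form at -7. In CENPF the variant form began at -115 and the main form at 41, downstream of the stretch printed. Of the 23 genes with a window and a ratio above 0, 19 had TTTGAA and 18 had CCAAT. Of the 12 with a ratio below 0, 9 had TTTGAA and 10 had CCAAT. The variant TTTAAA was present in 9 of the 23 (39.1%) and in 2 of the 12 (16.7%). Over all genes with a window the shares were 18.2% for TTTGAA, 39.7% for CCAAT and 14.5% for TTTAAA. All 3 motifs occurred before genes on either side of 0, as most members carry a CHR form and CCAAT. The share with TTTAAA was larger on the higher side, and no difference between the sides was tested.

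**Figure D1:**
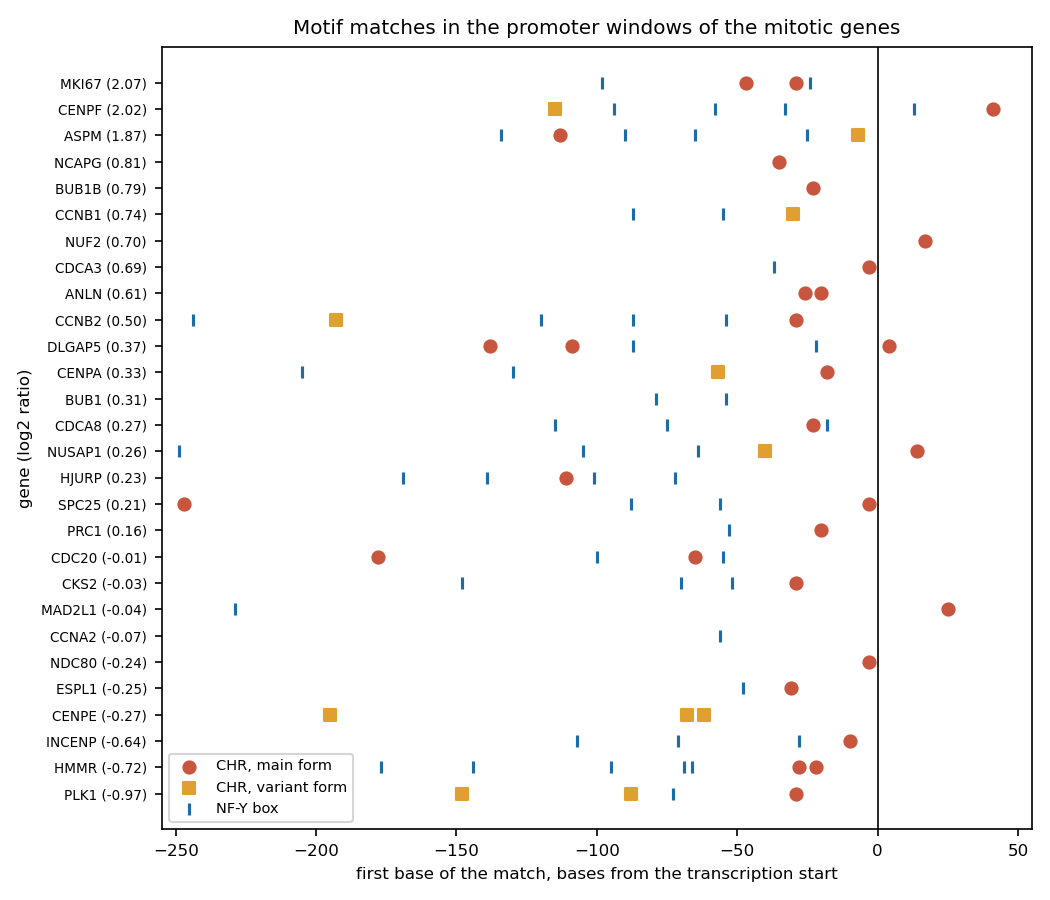
Motif matches in the promoter windows of the 28 measured members with 1 window, ordered from the highest to the lowest log2 ratio (in brackets), against the distance of the first base of the match from the transcription start in bases. Circles are the CHR, squares its variant and vertical bars the NF-Y box (CCAAT); a circle lies just before the start in MKI67 (2.07) and in PLK1 (-0.97), but at 41 in CENPF and at -113 in ASPM.

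The median deposited bead signal was 140.3 intensity units in wild-type and 142.4 in radiation-adapted cells, and 34.3% and 37.4% of 47323 probes were detected (detection p-value under 0.01 against the negative controls of the array). These medians lie among undetected probes. Over detected genes the radiation-adapted array was the brighter, by a median of 0.23 on the log2 scale without scaling, with 62.9% of genes above 0, and quantile normalization evens out this difference. All 9 Ewing sarcoma markers with a named probe, among them CD99, NKX2-2 and FLI1, were detected on both arrays, but their levels differed. At least 2-fold higher were 4 (NKX2-2, LIPI, BCL11B and CCND1, 44.4%, against 12.4% of all genes). At least 2-fold lower was 1 (STEAP1, 11.1%, against 10.3%), and CD99 had a ratio of -0.89. Of 7 leukocyte markers, 3 were detected in the wild type and 4 in the radiation-adapted line, with PTPRC, CD3E and ITGAM on neither array, and their summed signal was 1237.3 and 1585.6. The higher sum rested on CD68 (249.8 and 681.6), whose other probe gave a log2 ratio of -2.07, while LYZ (-1.31) and CD79A (-1.36) were lower. Of 8 fibroblast markers, 5 and 4 were detected (summed signal 1893.1 and 3190.3), with PDGFRA on neither, and they moved in opposite directions. THY1 was at least 27.8-fold higher (145.5 and 1509.8) and COL1A1 7.92-fold higher, whereas DCN was at least 11.6-fold, LUM at least 5.66-fold and COL3A1 2.83-fold lower. Of 6 epithelial markers, only KRT8 was detected, in the wild type (summed signal 935.5 and 825.2). The part of these markers in the values below was not tested.

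Of the 67 member probes, 62 were detected on both arrays, 1 in the wild type only and 4 on neither. At least 1 probe was detected on both arrays for 42 of the 43 genes. The exception was NCAPH, a subunit of condensin I, with signals of 146.1 and 149.4 at its probe and detection p-values of 0.07273 and 0.03506, so it has no ratio. Ratios are log2 of the normalized signal, radiation-adapted minus wild type, at the probe with the highest mean signal of each gene. The spread available is that between probes of 1 gene on the same arrays, an SD of 0.45 in the log2 ratio over 2269 genes and 0.29 over the 18 members with several measured probes. It leaves out any difference between cultures.

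In the radiation-adapted cells 4 members had at least 2-fold more signal: the proliferation marker MKI67, the kinetochore protein gene CENPF, the spindle pole gene ASPM and the mitotic transcription factor gene FOXM1. By the same rule 0 members were at least 2-fold lower, PLK1 coming nearest at 1.96-fold, although a second, less bright HMMR probe was 2.21-fold lower. The 4 of 42 (9.52%) compare with 12.4% of the 11352 genes detected on either array that were at least 2-fold higher, and the 0 with 10.3% that were at least 2-fold lower. Among the 9188 genes detected on both arrays, as all 42 were, these shares were 10.9% and 10.4%, and 21.3% lay past 2-fold in either direction. The count of higher members was thus near the background here. With median scaling it was 4 against 16.5% of all genes, and without scaling 5 against 18.3%, both below the background. In the main values 38 of 42 members stayed within 2-fold. The ratios of the 42 members spread with an SD of 0.68, against 0.90 over all genes detected on both arrays. Those genes were not matched to the members for signal. The median ratio of the members was 0.26, against -0.01 over all genes. Above 0 lay 27 members (64.3%), against 49.3% of all genes and 48.4% of those detected on both arrays. The distance between the member median and that of all genes depended on scaling: it was 0.27 here and 0.10 after median scaling or without scaling between the arrays.

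**Figure D2:**
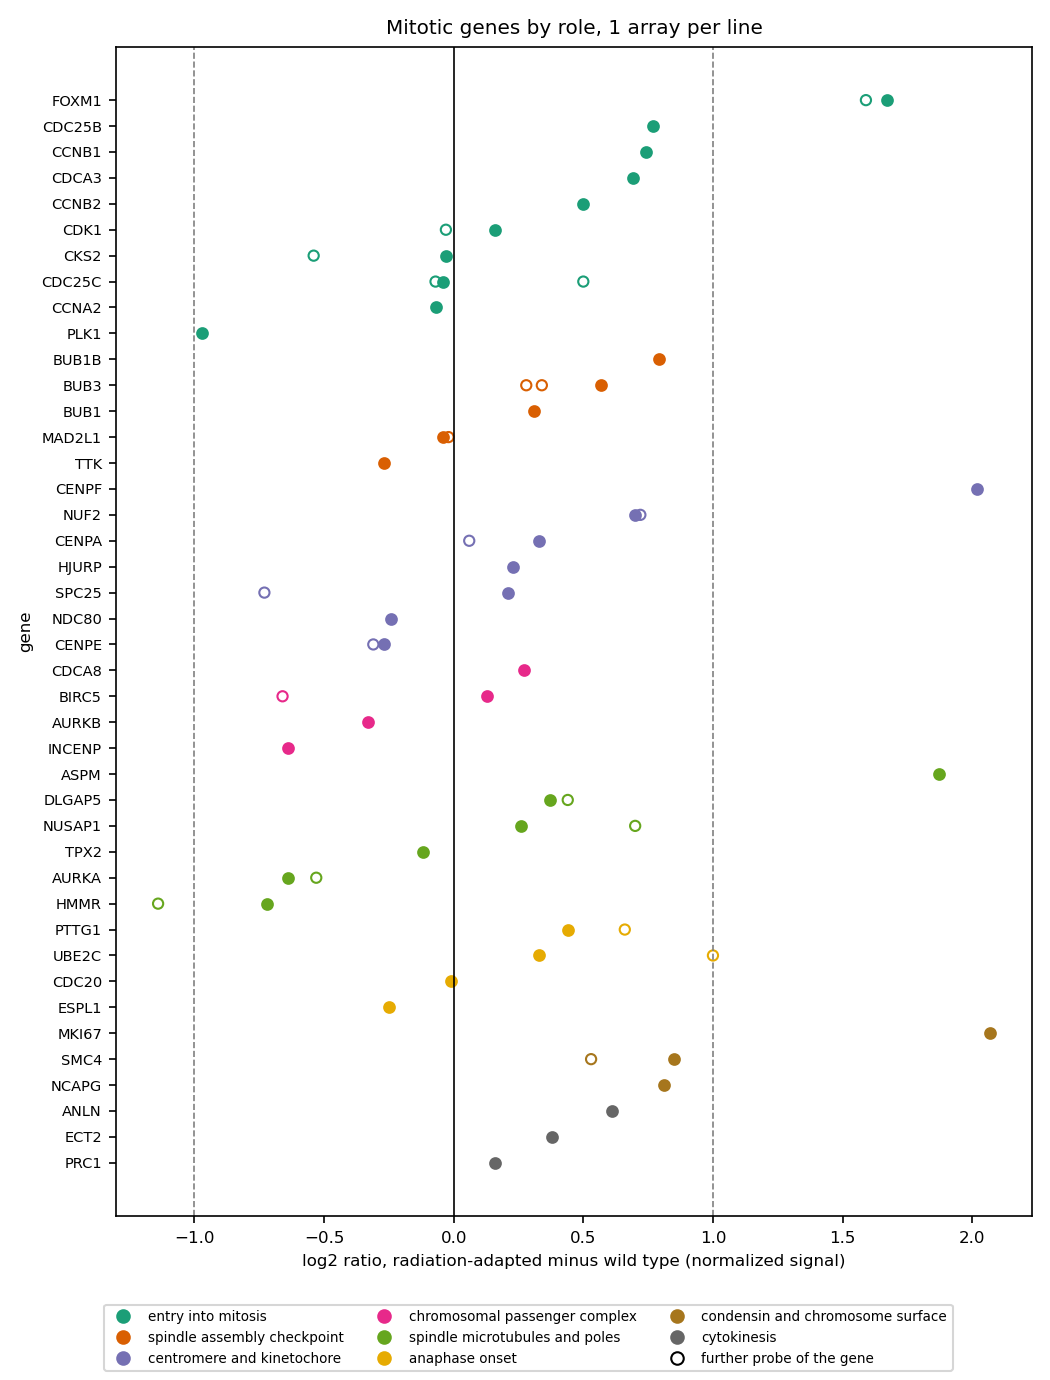
Log2 ratio (radiation-adapted over wild type) of the 42 measured members, grouped and coloured by role; filled circles are the brightest probe of a gene, open circles its further probes detected on both arrays, and dashed lines mark 2-fold. MKI67 (2.07), CENPF (2.02), ASPM (1.87) and FOXM1 (1.67) lie beyond the right line and no filled circle lies beyond the left one.

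Among the genes for entry into mitosis, 1 of 10 was at least 2-fold higher (10%, against 12.4% of all genes) and 0 were lower (against 10.3%). The median ratio was 0.33. With this few genes per role, 0 or 1 past 2-fold cannot be told apart from those shares. FOXM1 encodes a forkhead factor that drives the G2 and mitosis transcripts. Its signal was 510.5 in the wild type and 1544.2 in the radiation-adapted cells at the brighter probe, and 301.8 and 791.5 at the other, which the annotation assigns to another transcript. The radiation-adapted array was the brighter at both probes, by log2 ratios of 1.67 and 1.59, and the first is 3.18-fold. FOXM1 lies on chromosome 12 among genes that were also higher: of the 20 nearest genes with a value, 10 on each side, 11 were at least 2-fold higher and 0 lower, with a median ratio of 1.26. The ratio of FOXM1 was not adjusted for that. CDCA3, an adaptor for the destruction of the inhibitory kinase WEE1, lies on the same chromosome and had signals of 597.4 and 1009.5, a ratio of 0.69 that matched the median of its 20 neighbours (0.72).

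PLK1, the polo-like kinase that acts at centrosomes and kinetochores, stood at the other end of the group. Its signal was 492.5 in the wild type and 349.9 in the radiation-adapted cells, a ratio of -0.97. Its 20 neighbours on chromosome 16 had a median of 0.67, with 4 at least 2-fold higher and 0 lower, so PLK1 was lower while its neighbourhood was higher. In the authors' deposited processed table, on a log2 scale floored at 16 intensity units, the PLK1 ratio was -1.03 and passed 2-fold.

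The B-type cyclins, the activating partners of CDK1, were on the higher side. The signal of CCNB1 was 605.9 and 1052.5 in wild-type and radiation-adapted cells, a ratio of 0.74, and that of CCNB2 was 2100.5 and 2919.8, a ratio of 0.50. CDC25B, a phosphatase that activates CDK1, had signals of 2494.5 and 4009.4, a ratio of 0.77. These 3 exceeded the SD of 0.45 between probes and stayed under 2-fold, although CCNB2 was at 0.43 with median scaling. CDK1 itself had signals of 1893.1 and 2165.6 (ratio 0.16, and -0.03 at its other probe), and CCNA2, the A-type cyclin of S phase and G2, had 1579.2 and 1589.1 (ratio -0.07). The kinase subunit and cyclin A were therefore within the spread of probes. CDC25C, the other phosphatase of the group, gave -0.04, -0.07 and 0.50 at its 3 probes. CKS2, a small CDK-binding subunit, gave -0.03 and -0.54. For CDC25C and CKS2 the probes of 1 gene differed by more than 0.45, so the ratio depends on the probe.

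**Figure D3:**
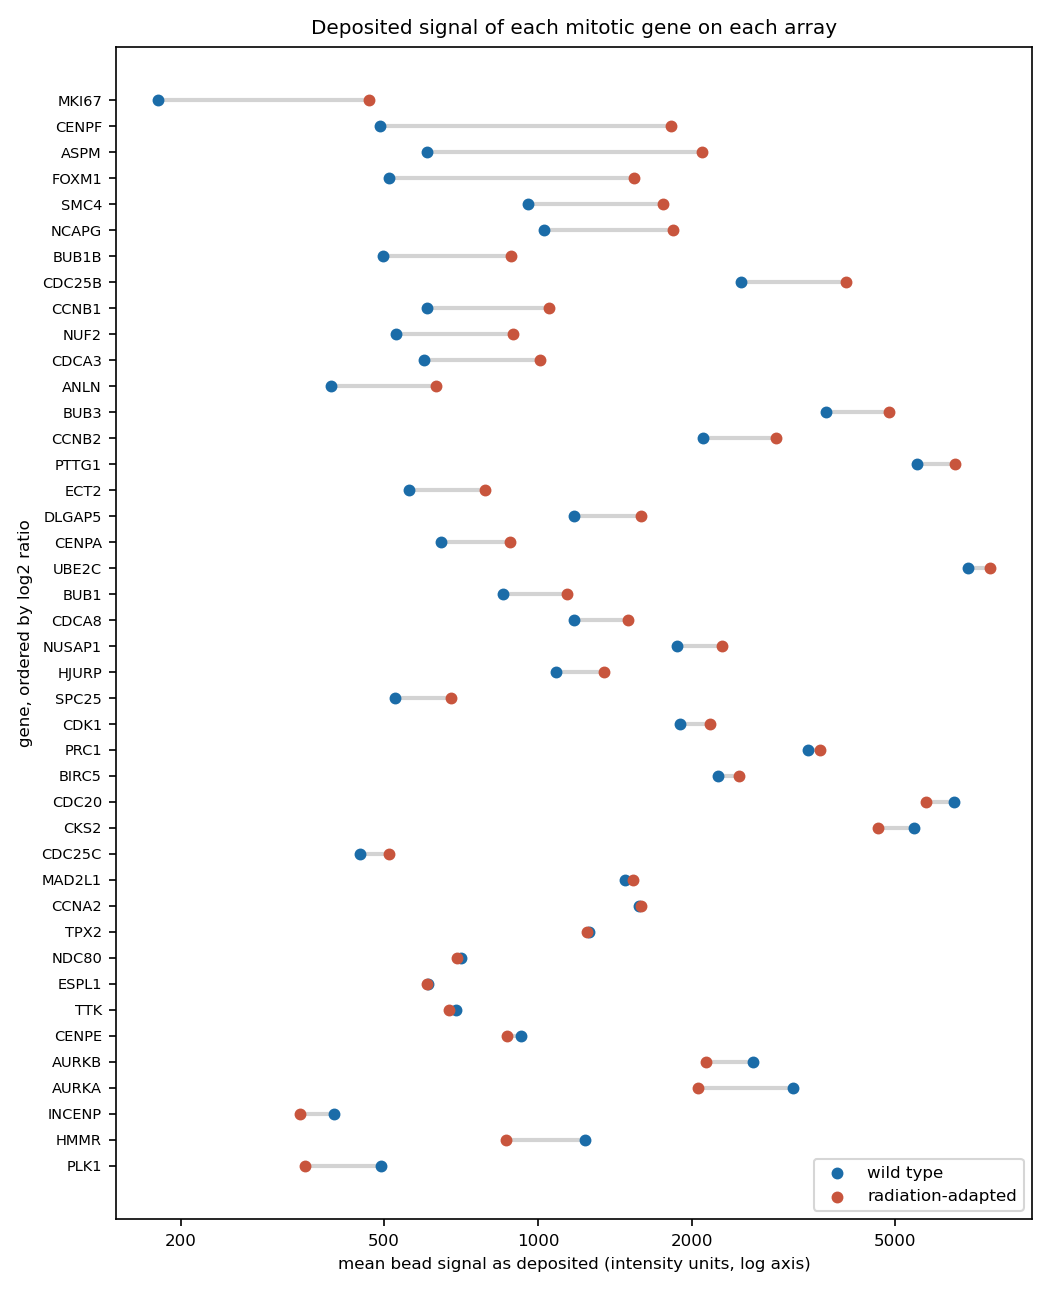
Deposited mean bead signal (intensity units, log axis) of each measured member on the wild-type array (blue) and the radiation-adapted array (red), at the brightest probe, ordered from the highest to the lowest log2 ratio. The gap is widest for CENPF (489.9 and 1821.8), ASPM (606.8 and 2092.1) and FOXM1 (510.5 and 1544.2), whereas the red point lies left of the blue for 12 of the 42, among them PLK1, HMMR, INCENP, AURKA, AURKB and CKS2; levels of different genes come from different probes and cannot be compared.

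Of the 5 spindle assembly checkpoint genes, 0 were past 2-fold in either direction (against 21.3% of genes detected on both arrays). The median ratio was 0.31. BUB1B encodes BUBR1, which holds CDC20 in the mitotic checkpoint complex, and had signals of 498.6 and 886.4, a ratio of 0.79. BUB3, its binding partner, gave 0.57, 0.34 and 0.28 at the 3 probes detected on both arrays. A further BUB3 probe was detected in the wild type only (162.7 and 148.3), close to background. BUB1, the kinase that marks kinetochores for checkpoint assembly, had 855.8 and 1137.2 (ratio 0.31). MAD2L1 encodes MAD2, which completes the complex with BUBR1, BUB3 and CDC20, and its ratios were -0.04 and -0.02. TTK, the kinase MPS1 that starts the signal, had 691.2 and 670.3 (ratio -0.27). Within this complex BUB1B and the brightest BUB3 probe lay beyond the SD between probes and MAD2L1 and CDC20 did not. BUB3 lost this call with median scaling (0.35), without scaling (0.42) and with the mean of its detected probes (0.20).

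Centromere and kinetochore genes included 1 of 7 past 2-fold, on the higher side (14.3%, against 12.4% of all genes), with a median of 0.23. CENPF, a large protein of the outer kinetochore, had a signal of 489.9 in the wild type and 1821.8 in the radiation-adapted cells. The normalized level was 4.06-fold higher, which ranked 207th from the top among 9188 genes detected on both arrays, and the median of its 20 neighbours on chromosome 1 was 0.34. CENPE, the kinetochore kinesin, was on the other side of 0 at both of its probes (-0.27 and -0.31). The centromeric histone gene CENPA had ratios of 0.33 and 0.06, and HJURP, the chaperone that loads it, had 0.23. All 3 of CENPA, HJURP and CENPE stayed within 0.45, although CENPA was at 0.46 with median scaling.

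The NDC80 complex, which binds microtubule ends, was not uniform. NUF2 had signals of 527.5 and 892.8 at its brightest probe, and its ratios were 0.70 and 0.72 at the probes detected on both arrays. NDC80, which pairs with NUF2, had 707.2 and 694.5, a ratio of -0.24. SPC25 gave 0.21 at the brighter probe (525.4 and 675.7) and -0.73 at the other (401.5 and 331.5), although both are annotated to the same transcript. SPC24, the remaining subunit, which is no member, had -0.05. NUF2 was thus higher at each measured probe, and the direction of SPC25 was set by the probe chosen.

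Of the 4 genes of the chromosomal passenger complex, which corrects faulty attachments, 0 were past 2-fold (against 21.3% of genes detected on both arrays). The median ratio was -0.10. INCENP, the scaffold, had signals of 398.5 and 341.9, a ratio of -0.64. AURKB, the kinase, had 2636.0 and 2135.5, a ratio of -0.33. The other subunits, CDCA8 (borealin) and BIRC5 (survivin), had 0.27 and 0.13 at their brightest probes. The second BIRC5 probe, annotated to another transcript and much dimmer (312.4 and 272.7), gave -0.66. No subunit of this complex exceeded 0.45 on the higher side, and INCENP did so on the lower side, a call it lost with median scaling (-0.39) and without scaling (-0.32).

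Of the 6 genes of spindle microtubules and poles, 1 was at least 2-fold higher (16.7%, against 12.4% of all genes) and 0 lower (against 10.3%). The median was 0.07. ASPM organises microtubule minus ends at the poles, and its signal was 606.8 in the wild type and 2092.1 in the radiation-adapted cells. The normalized level was 3.66-fold higher, with a median of 0.45 over its 20 neighbours on chromosome 1, of which 5 were at least 2-fold higher and 0 lower. HMMR, a hyaluronan receptor that also binds spindle microtubules, was the reverse, with 1236.3 and 865.4 at its brighter probe (1.65-fold lower). The other HMMR probe, of another annotated transcript, had 1096.5 and 617.8, or 2.21-fold lower. Its neighbours had a median of 0.22.

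AURKA, the centrosomal kinase that activates PLK1, was lower at both probes, with signals of 3152.2 and 2058.6 (ratio -0.64) and of 2679.6 and 1930.3 (-0.53). TPX2, its activator on spindle microtubules, had 1256.9 and 1246.8 (ratio -0.12). BORA, the cofactor through which AURKA acts on PLK1, is no member and was 2.48-fold lower, with signals of 511.3 and 310.7. BORA lies on chromosome 13, where its 20 neighbours had a median of -0.77 and 7 were at least 2-fold lower, against a neighbour median of 0.07 for AURKA on chromosome 20. NUSAP1, a microtubule bundling protein gene, had 0.26 and 0.70 at its probes, and DLGAP5, a kinetochore fibre protein gene, 0.37 and 0.44.

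Of the 4 genes of anaphase onset, 0 were past 2-fold at the brightest probe (against 21.3% of genes detected on both arrays). The median was 0.16. CDC20, the activator of the anaphase-promoting complex, had signals of 6497.5 and 5734.7, a ratio of -0.01. The ratios of PTTG1, which encodes securin, were 0.44 and 0.66, and that of ESPL1, the separase that securin restrains, was -0.25 (610.5 and 605.3). UBE2C, the ubiquitin-conjugating enzyme of the complex, had 6922.5 and 7671.2 (ratio 0.33). A dim second UBE2C probe, annotated to another transcript, gave 202.3 and 337.3, or 1.99-fold higher.

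All 3 measured genes of condensin and the chromosome surface were higher by more than 0.45, and 1 of them passed 2-fold. Of all genes detected on both arrays, 26.4% passed 0.45 and 10.9% passed 2-fold on that side. MKI67 encodes Ki-67, which coats mitotic chromosomes, and had a signal of 180.7 in the wild type (detection p-value 0.0013) and 466.3 in the radiation-adapted cells. The normalized level was 4.21-fold higher, the 186th highest ratio of 9188, and its neighbours on chromosome 10 had a median of 0.10. The wild-type signal of MKI67 lay near the background, and its ratio ranged more widely over the processing settings than that of any other member, from 1.68 with an offset of 50 to 2.42 without scaling. SMC4, the ATPase shared by both condensins, had 957.6 and 1755.8 (ratio 0.85, and 0.53 at its dimmer measured probe). NCAPG, a HEAT-repeat subunit of condensin I, had 1025.7 and 1839.7 (ratio 0.81). SMC2, the partner of SMC4, had 0.52 (0.14 at its other probe), and NCAPD2 of condensin I 0.30. Of the condensin II subunits, NCAPD3 had 0.80, with a median of 1.11 over its 15 neighbours on chromosome 11, whereas NCAPG2 was 2.17-fold lower and NCAPH2 1.91-fold lower (3.17-fold at its other, dimmer probe). None of SMC2, NCAPD2, NCAPD3, NCAPG2 and NCAPH2 is a member.

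The 3 cytokinesis genes all had ratios above 0, with 0 past 2-fold. Of all genes detected on both arrays, 48.4% lay above 0 and 21.3% past 2-fold in either direction. ANLN, the contractile ring scaffold anillin, had 393.8 and 631.0 (ratio 0.61). ECT2, which activates RHOA at the division site, had 558.5 and 786.6 (0.38). PRC1, which bundles midzone microtubules, had 3377.1 and 3554.4 (0.16). ANLN alone of the 3 exceeded 0.45, and ECT2 joined it with median scaling (0.53).

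Over the whole group, 14 members had ratios of at least 0.45 and 4 of at most -0.45, while 24 lay between. The 4 were PLK1, HMMR, AURKA and INCENP. Of all genes detected on both arrays, 26.4% and 27.2% lay past these limits. The 14 of 42 thus stood somewhat over the background and the 4 well under it, with no test possible and no matching for signal. These calls depended on scaling and on the choice of probe. With median scaling the counts were 14 and 3 against 33.8% and 21.7% of all genes, as CENPA and ECT2 passed 0.45 while BUB3, CCNB2 and INCENP no longer did. Without scaling they were 17 and 3 against 37.0% and 19.0%, so under both scaling settings the higher count came close to the background. With the mean of the detected probes they were 16 and 4 against 25.1% and 27.2%. There NUSAP1, PTTG1 and UBE2C passed 0.45 and BUB3 no longer did. Of the 18 members with several probes measured on both arrays, 9 had every probe above 0, 5 had every probe below 0 and 4 (BIRC5, CDC25C, CDK1 and SPC25) had probes on both sides. The largest difference between probes of 1 member was 0.94, in SPC25, followed by 0.79 in BIRC5.

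Other genes of the same machinery were then set beside the members. Of 92 detected genes out of 95 with a named probe, 4 exceeded 2-fold on each side (4.35%, against 12.4% of all genes higher and 10.3% lower), and the median ratio was 0.09. The distance to the member median of 0.26 was small with median scaling, at 0.24 for these genes and 0.26 for the members. Those higher were SPDL1 (2.54-fold), which recruits dynein to kinetochores, NUMA1 (2.26-fold, with 0.24 at its other probe), which ties microtubules to the spindle pole, CENPU (2.21-fold) of the inner kinetochore and MIS12 (2.03-fold) of the outer one. Those lower were MAD1L1 (3.10-fold, with a signal of 179.8 near background in the radiation-adapted cells), which presents MAD2 at kinetochores, BORA, NCAPG2 and SGO1 (2.09-fold, and 2.66-fold at its other probe), which protects centromeric cohesion. The neighbour medians of SPDL1, NUMA1, CENPU and MIS12 were 0.22, 0.24, 0.28 and 0.18. Of 20 neighbours each, 5 of NUMA1 and 7 of CENPU were at least 2-fold higher. SGO1 and BORA lie among genes that were also lower (neighbour medians of -0.79 and -0.77), and NCAPG2 and MAD1L1 had neighbour medians of -0.30 and -0.29. The anaphase-promoting complex had 0 of 13 detected genes past 2-fold, from CDC16 at -0.77 (-1.29 and -0.49 at its other probes) to ANAPC13 at 0.67.

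Of 20 regulators of these promoters, each detected on at least 1 array, 2 exceeded 2-fold on each side (10%, near the 12.4% and 10.3% of all genes), with a median of 0.35. E2F3, an activating E2F, was 2.63-fold higher, and NFYA, the DNA-contacting subunit of NF-Y, 2.40-fold higher (189.5 and 342.6). MYBL2, which encodes B-MYB, was 2.06-fold lower (198.5 and 165.0), and TFDP1, the partner of E2F proteins, 2.02-fold lower (1.74-fold at its other probe). TFDP1 lies near the end of chromosome 13, where its 14 neighbours had a median of -0.58, while those of MYBL2 on chromosome 20 had 0.18. MYBL2 and FOXM1, which act on the same promoters, thus had ratios of opposite sign. However, the MYBL2 signal was near background, and FOXM1 lies among genes that were also higher (neighbour median 1.26). The MuvB genes LIN9, LIN37, LIN52, LIN54 and RBBP4 had ratios of 0.57, -0.24, 0.43, -0.04 and 0.74. The other RBBP4 probes gave -0.11 and 0.40. RBL2, the p130 subunit of DREAM, had 0.90. Others of this list went different ways, with RBL1 at 0.03 (189.2 and 212.4, near background), E2F4 at 0.71 and E2F5 at -0.91.

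The genes of DNA replication and the G1/S transition had a higher median than the mitotic members. Of 27 detected genes out of 29 with a probe, 4 were at least 2-fold higher (14.8%, near the 12.4% of all genes) and 0 lower (10.3% of all genes), the median ratio was 0.55 and 21 (77.8%, against 49.3%) lay above 0. Those higher were UHRF1 (4.58-fold, and 2.63-fold at a much dimmer probe), CCNE1 (2.66-fold, from a wild-type signal of 169.7 near background), MCM2 (2.05-fold) and MCM4 (2.02-fold, and 1.68-fold at its other probe), and the lowest ratio was that of PRIM1 (-0.98). In their promoters TTTGAA was present in 2 of 36 windows (5.6%) and CCAAT in 25 (69.4%). The other mitotic genes lay between all promoters and the members, with TTTGAA in 39 of 109 windows (35.8%) and CCAAT in 56 (51.4%). The difference between the medians was not tested.

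**Figure D4:**
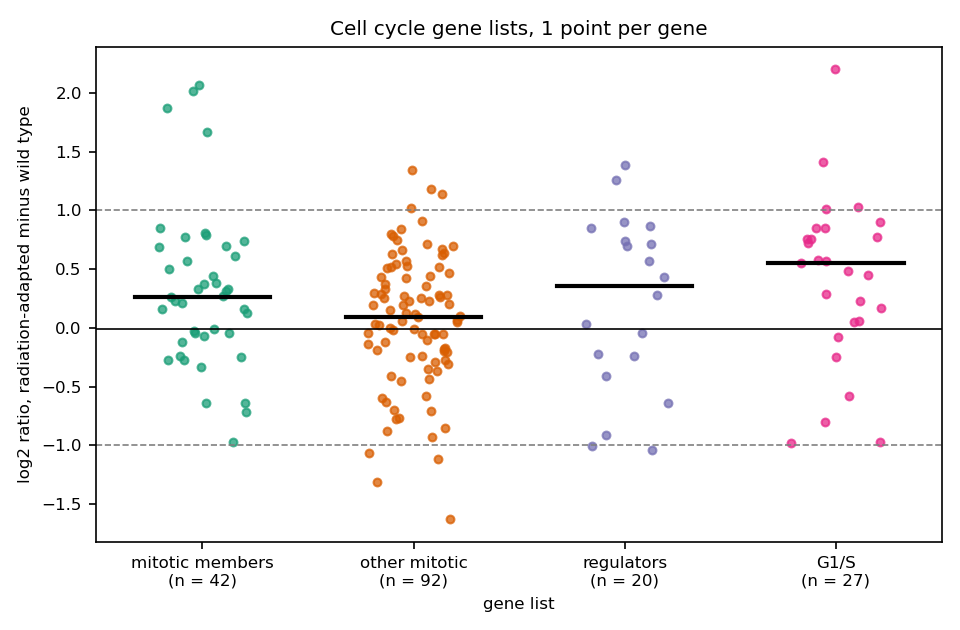
Log2 ratio (radiation-adapted over wild type) of each detected gene in 4 lists, with the list median as a thick bar, the median of all genes as a thin line and 2-fold as dashed lines; sideways scatter has no meaning. The medians are 0.26 for the 42 mitotic members, 0.09 for 92 other mitotic genes, 0.35 for 20 regulators and 0.55 for 27 G1/S genes.

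**Figure D5:**
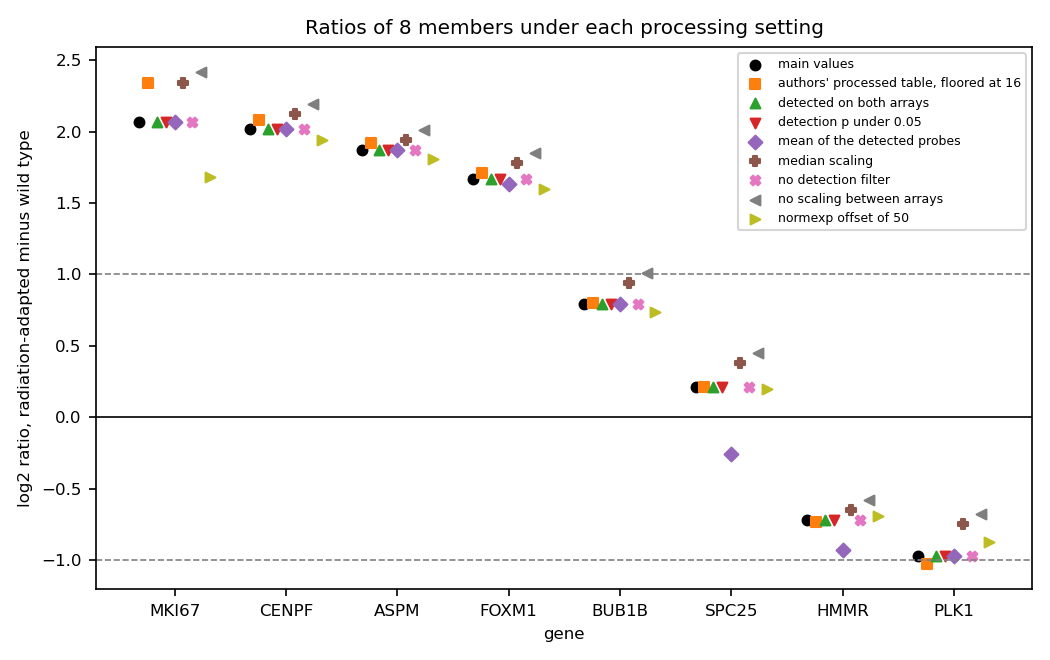
Log2 ratio of 8 members under the main processing (black) and 8 alternatives (other symbols), with dashed lines at 2-fold. MKI67, CENPF, ASPM and FOXM1 stay above 1 under each setting, BUB1B reaches 1.01 without scaling, PLK1 reaches -1.03 in the authors' processed table and SPC25 turns to -0.26 with the mean of its probes.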

How the data were processed

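Per the labels' protocols, RNA isolated with Trizol was amplified into biotinylated cRNA. Per the file headers, the authors deposited a mean bead signal (linear intensity, with no background subtracted and no scaling, as the values show) and a detection p-value for 47323 probes on 2 arrays. A processed intensity table deposited by the authors has the same quantiles in both columns and reaches below 0. The steps behind both tables are not given in the sources used here.

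Genes came from the platform annotation (30113 probes with 1 gene, 8 with several and 17202 with none, the latter left out). Background correction and quantile normalization followed limma 3.58.1 (R 4.3.3, neqc) with an offset of 16, which shrinks ratios of dim probes. A gene took its brightest detected probe. Where 1 array only detected it, the dim value was set to at least the lowest detected signal (log2 5.60 and 5.36), and such a ratio is a bound. The number of arrays limits the precision. All 43 members are given. Of other lists, genes past 2-fold, the highest and lowest, and a few partners of members are named. ANAPC13, CDC16, SPC24, SMC2, NCAPD2, NCAPD3, NCAPH2, RBL1, RBL2, E2F4, E2F5 and the MuvB genes were chosen after their values were seen. Members, lists and roles were chosen with earlier results of these data known. Alternatives covered offset, scaling, detection, probe choice and the processed table.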

Additional observations from a re-analysis of the deposited data

How the results depend on the processing

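With 8 alternatives for each of 42 members, 335 of 336 member ratios moved by less than the SD between probes (0.45) and 0 of the 4 members past 2-fold turned sign. The exception was SPC25, at -0.26 with the mean of its probes. This count includes alternatives that could not move a member. Those of the detection rule left every member ratio unchanged, since each brightest probe was detected on both arrays. The mean of probes could change only members with more than 1 detected probe. The counts of members at least 2-fold higher ranged from 4 to 5 (BUB1B joined without scaling). Over all genes that share ranged from 9.1% with no detection filter to 18.3% without scaling. The count of members at least 2-fold lower was 0, and 1 (PLK1) in the authors' processed table. Over all genes the lower share ranged from 6.7% with no detection filter to 12.7% in the processed table. Under median scaling the median over all genes was 0.16 in place of -0.01, and that of the other mitotic genes 0.24 in place of 0.09. Without scaling between arrays they were 0.23 and 0.31. The lists did not all move with it: the member median was 0.26 with median scaling and 0.33 unscaled, and that of the G1/S genes 0.51 and 0.58 in place of 0.55, so the members and the other mitotic genes then had nearly the same median. Of the genes past 2-fold, 54.6% were higher as reported, 67.0% with median scaling and 71.7% unscaled. Ratios near 0 (CCNA2, CDC25C, MAD2L1, SPC25 and BIRC5) changed sign under at least 1 alternative. Among the cell cycle genes named, signal under 200 intensity units on at least 1 array limits MKI67, CCNE1, MAD1L1, MYBL2, NFYA, LIN37 and RBL1. NCAPH was not detected. No paired analysis was possible because each line has 1 array.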
